A study of Mus musculus with 6 samples.

Results

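The p53 gene Trp53, its controllers Mdm2 and Mdm4 and 29 known p53 target genes were followed in C2C12 cells, a mouse myoblast line of C3H origin that differentiates into myotubes. The 32 genes were chosen by symbol, leaving out Cdkn1a, and were found among the 37991 genes of the deposited files. All 32 were counted in every library and were among the 16472 genes tested. Cytoplasmic polyA RNA was sequenced from cells carrying LV sh-Kap1, the Kap1 knockdown, or LV sh-Luc, the control construct, so that every group was transduced. Proliferating myoblasts (MB), grown in 10% fetal calf serum, gave 2 control and 2 knockdown libraries. Cells moved for 48 hours to 2% horse serum with insulin, transferrin and selenium (MT) gave 1 control and 1 knockdown library. The labels give neither the hairpin sequences nor whether clones or pools of cells were used. They also do not state whether replicate MB libraries came from separate cultures. The p-values therefore measure only how far these libraries spread, and that spread may be technical.

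The transcription factor p53 is kept at a low level by the ubiquitin ligase Mdm2, with its relative Mdm4, and is stabilised by DNA damage and other stresses. It then binds its targets, which halt the cell cycle, repair DNA, restrain growth signalling or start apoptosis, and Mdm2 is itself a target, which closes a feedback loop. KAP1, the protein of the gene Trim28 and the protein that the series set out to deplete, is known as a partner of Mdm2 besides its role as a corepressor on chromatin. In muscle precursors, p53 target genes are discussed in both withdrawal from the cell cycle and loss of cells during differentiation. RNA levels say nothing of p53 protein or its activity.

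**Figure D1:**
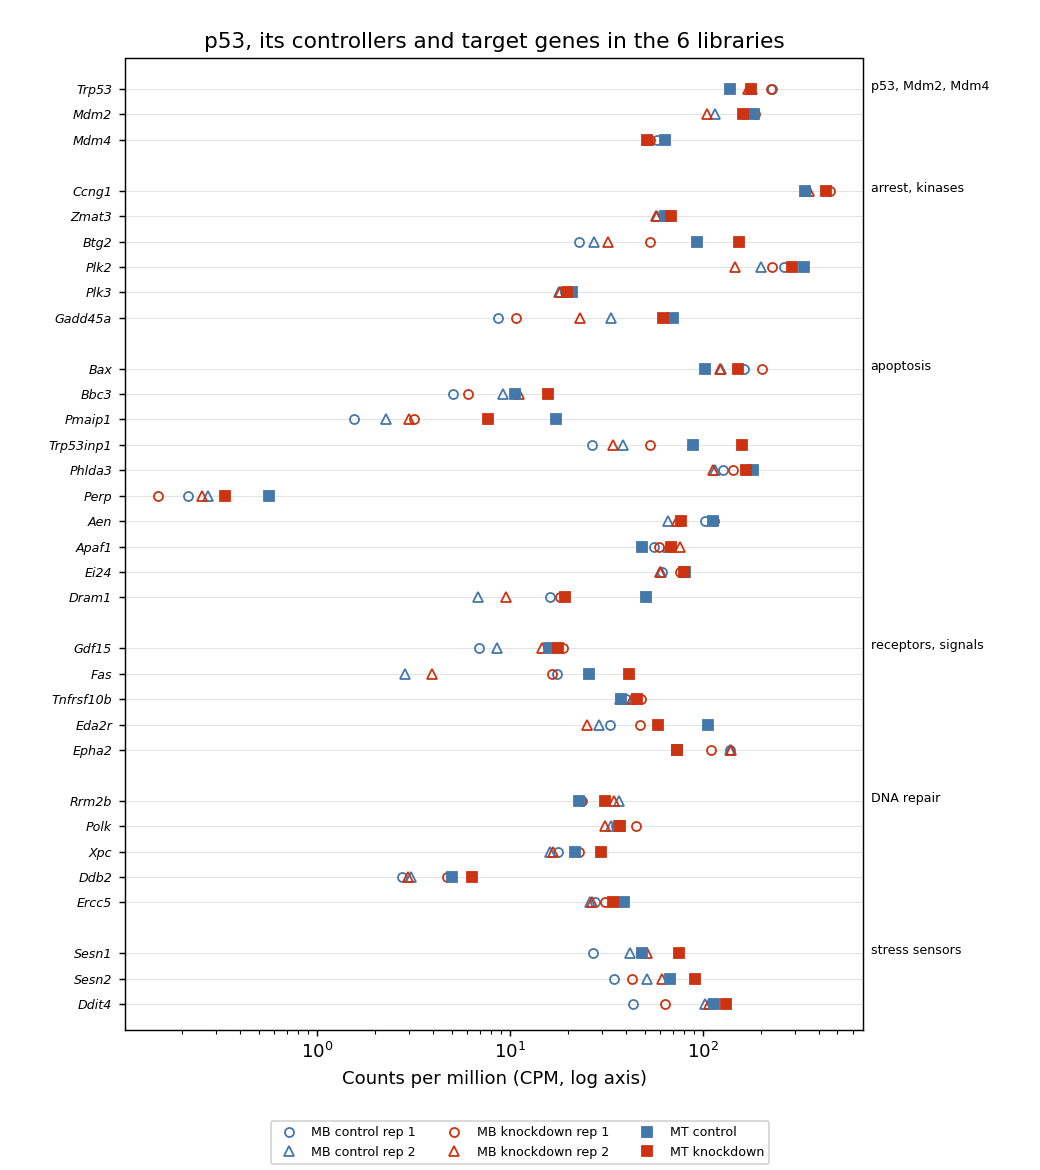
Level of each of the 32 genes in each of the 6 libraries, in CPM on a log axis, with the genes grouped by role. Circles and triangles are MB replicates 1 and 2, squares are MT libraries, blue is control and red is knockdown. Fas, Gadd45a and Dram1 show a gap between the MB replicates in both colours, and Pmaip1 a gap between MB and MT.

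Levels are given as CPM, the share of a library's counts on genes scaled to a common total. The libraries held 36247530 to 49839994 counts on genes, and the 32 genes took 0.203% to 0.285% of them. The targeted gene Trim28 was at 587 and 417 CPM in MB control, 153 and 101 CPM in MB knockdown, 382 CPM in MT control and 122 CPM in MT knockdown, so every knockdown library lay under every control library. The 6 myoblast markers summed to 461 to 2433 CPM. The 3 endothelial markers stayed under 1 CPM each in all libraries. Marker sums were 0.275 to 11.6 CPM for adipocytes, 1.67 to 3.72 CPM for immune cells and 8.17 to 27.9 CPM for keratinocytes. The list for smooth muscle or myofibroblasts summed to 1295 to 5815 CPM. Most of that was Acta2, at 1205 to 5116 CPM, while Myh11 had 1 to 10 counts per library. The 7 markers of differentiated muscle summed to 6173 CPM in MT control against 127 CPM in MT knockdown, and to 14.3 to 118 CPM in MB. These are bulk samples, in which fewer cells of a kind and less RNA per cell cannot be told apart.

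A gene is called higher or lower where its adjusted p is under 0.05 (edgeR quasi-likelihood test, Benjamini-Hochberg over all 16472 genes). In a fit with a mean for each group and no other term, 0 genes passed in any contrast. The calls below come from a second fit, which adds a term for a mark in the file names that goes with the MB replicate number and that both MT files share with replicate 1, and it is named the replicate block. This block has 1 residual degree of freedom, from the MB libraries, and each lone MT library is assumed to vary as they do, so MT contrasts have no replicate check. Among the 32 genes, unadjusted p under 0.05 was reached without the block by 1 gene for knockdown in MB, 1 for knockdown in MT, 9 for differentiation of control cells, 4 for differentiation of knockdown cells and 2 for the difference of both knockdown effects. Among all tested genes the shares were 2.76%, 8.4%, 25.3%, 15.3% and 5.01% in that order. DESeq2 without the block called 0, 0, 7, 3 and 0 of the 32, beside 52, 360, 2379, 835 and 158 of all genes. The number of genes that DESeq2 tested was not recorded, so no share is given.

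RefSeq promoter windows (build GRCm38.p6, 250 bases before to 50 after a start site) were at hand for 24 of the 32 genes. They were searched for the p53 half-site motif, of which p53 binds pairs. The motif reads the same on both strands, so 1 scan covers both. It was found in 10 of 31 windows, belonging to 9 genes, and in 8.36% of all 32851 windows. No window of these genes held a pair with a gap of up to 13 bases, which 0.0731% of all windows did. Absence from this window says only that these letters are not there, since p53 sites often lie in introns or further away. Pmaip1, Trp53inp1, Tnfrsf10b, Zmat3, Perp, Rrm2b, Xpc and Ddb2 were not analysed here for promoters. The matches are shown because they are the stretches near a start site, in 9 of the 24 genes searched, that hold the letters of a half-site. Each is given 5′ to 3′ on the gene's strand over 30 bases, with the half-site in capitals.

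Mdm2: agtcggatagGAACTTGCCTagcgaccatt
Trp53: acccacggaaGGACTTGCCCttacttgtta
Ccng1: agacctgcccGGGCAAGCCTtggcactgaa
Gadd45a: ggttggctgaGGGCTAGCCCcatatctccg
Bax: agcatatcccAGGCAAGCTTtgaacttgcg
Aen: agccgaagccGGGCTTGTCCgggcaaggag
Ei24: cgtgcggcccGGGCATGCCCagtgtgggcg
Polk: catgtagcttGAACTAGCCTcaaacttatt
Sesn1: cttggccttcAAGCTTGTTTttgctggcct

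The Mdm2 stretch lies at chr10:117710925-117710954 on the minus strand, with its half-site starting at -186 from the start site, and the Trp53 stretch at chr11:69580274-69580303 on the plus strand, starting at -75. The half-site of Ccng1 starts at -185 (chr11:40755452-40755481, minus), that of Gadd45a at -40 (chr6:67037428-67037457, minus) and that of Bax at -201 (chr7:45467080-45467109, minus). The Aen match (chr7:78895927-78895956, plus) starts at 10, inside the transcript, from one annotated start and at -121 from another. Ei24 has it at -10 (chr9:36797325-36797354, minus), Polk at -231 (chr13:96519399-96519428, minus) and Sesn1 at -173 (chr10:41887256-41887285, plus). These are descriptions of letters, not sites shown to be bound.

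None of Trp53, Mdm2 and Mdm4 was called for knockdown in MB. Trp53 stood at 229.6 and 179.8 CPM in MB control, 226 and 171 CPM in MB knockdown, 139 CPM in MT control and 179 CPM in MT knockdown (pairs of values are replicates 1 and 2 throughout). The MB groups overlapped, and MT control held the lowest value. With knockdown in MT the log2 change of Trp53 was 0.23 in edgeR with the block and was not called. Trp53 fell during differentiation of control cells by 0.71 on the log2 scale (SE 0.126, adjusted p = 0.00122, edgeR with the block). It fell by 0.41 in knockdown cells (SE 0.125, adjusted p = 0.0308), a call that was lost with total library size scaling (adjusted p = 0.0653) and in DESeq2 with the block (0.0697). Without the block the control value ran from -0.69 without MB_shCtrl replicate 2 to -0.36 without MB_shCtrl replicate 1, and the knockdown value from -0.41 to -0.050 without MB_shKap1 replicate 1. Trp53 has a named pseudogene, Trp53-ps, and Mdm4 has Mdm4-ps, so reads from a copy could be shared.

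Mdm2, the ligase that marks p53 for destruction, was at 164 and 116 CPM in MB control, 186 and 105 CPM in MB knockdown, 185.5 CPM in MT control and 162 CPM in MT knockdown. Its replicates lay further apart than its groups, and it was not called for knockdown in MB (log2 change -0.0057, SE 0.103, adjusted p = 0.988) or in MT (-0.33, SE 0.146, adjusted p = 0.143). Mdm4, which inhibits p53 without degrading it, was at 57.7 and 52.5 CPM in MB control, 53.5 and 51.7 CPM in MB knockdown, 63.6 CPM in MT control and 51.6 CPM in MT knockdown. It fell with knockdown in MT by 0.44 (SE 0.134, adjusted p = 0.043). This call was lost with total library size (-0.30, adjusted p = 0.118) and in DESeq2 with the block (adjusted p = 0.202).

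Genes that act on p53 were taken from a list of 28, of which 26 were tested. With the block, 0 rose and 1 fell with knockdown in MB (0% and 3.85%, beside 2.5% and 1.34% of all tested genes). That gene was Sirt1, a deacetylase of p53, at 30.3 and 38.4 CPM in MB control against 22.3 and 27.6 CPM with knockdown (log2 change -0.49, SE 0.0996, adjusted p = 0.0245). In MT, 2 rose with knockdown and 2 fell (7.69% each, beside 9.09% and 11.2% of all tested genes). The damage kinase Chek2 went from 13 to 22 CPM (0.63, adjusted p = 0.0268) and Trp53bp2, which steers p53 to apoptosis genes, from 25.7 to 42 CPM (0.57, adjusted p = 0.0156). The fallers were Ppp1r13l, an inhibitor of p53, from 32.4 to 16 CPM (-1.16, adjusted p = 0.000955), and the kinase Atm, which starts the damage response, from 26.7 to 20.7 CPM (-0.50, adjusted p = 0.0302). Differentiation of control cells raised 4 and lowered 12 of the 26 (15.4% and 46.2%, beside 22.3% and 22.6% of all tested genes). That of knockdown cells raised 3 and lowered 7 (11.5% and 26.9%, beside 16.6% and 16.5%). Chek1, a checkpoint kinase of dividing cells, fell by 1.31 in control and 0.92 in knockdown cells (adjusted p = 8.19e-05 and 0.00157), and Atm by 0.94 and 1.18 (0.000255 and 0.000173).

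The p53 relative Trp63 was near silent in MB control, with 1 and 6 counts. It had 13 and 20 counts in MB knockdown, and the MT libraries had 239 for control and 111 for knockdown. In CPM these are 0.0238, 0.148, 0.279, 0.458, 4.79 and 3.06. It rose during differentiation of control cells (log2 change 6.42, adjusted p = 8.06e-06, edgeR with the block) and of knockdown cells (3.55, adjusted p = 0.000431), the former against a group with few counts, so that its size depends on the prior count. Cdkn2a, whose alternative product Arf restrains Mdm2, had 0 counts in all 6 libraries, which allows up to 3 counts, or 0.0602 to 0.0828 CPM by library. Trp73 had 0 counts in MB, and in MT it had 7 for control and 1 for knockdown.

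**Figure D2:**
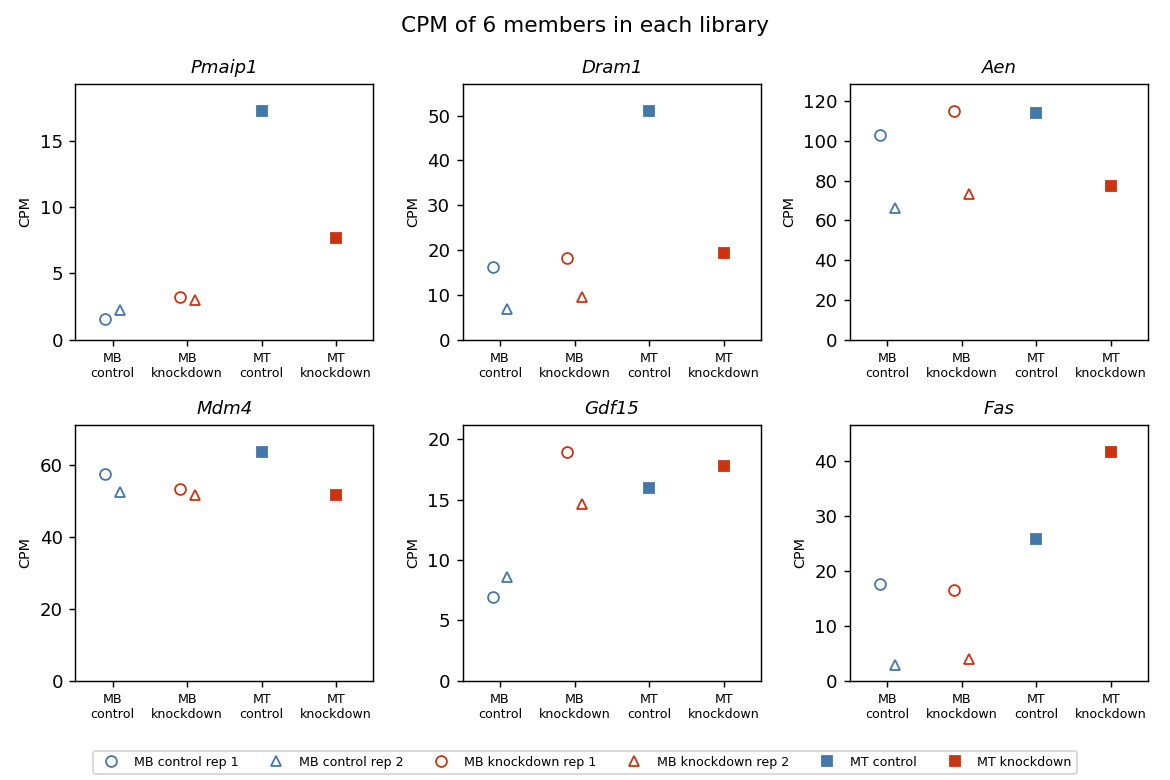
CPM of Pmaip1, Dram1, Aen, Mdm4, Gdf15 and Fas in each library, on linear axes that start at 0 and differ between genes. Symbols are as in the plot of all 32 genes. Pmaip1 and Dram1 peak in MT control (17.3 and 51 CPM), Gdf15 separates the MB groups, and Fas separates the MB replicates.

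Knockdown in MB shifted 1 of the 32 genes past the threshold. Gdf15, a secreted stress cytokine of the TGF-beta family, was at 6.94 and 8.58 CPM in MB control, 18.9 and 14.7 CPM in MB knockdown, 16 CPM in MT control and 17.8 CPM in MT knockdown. Both knockdown libraries lay above both controls, and the MT libraries lay among the MB knockdown values. The log2 change in MB was 1.08 (SE 0.172, adjusted p = 0.0113, edgeR with the block), higher in 2 of 2 pairs, and without the block 1.08 with unadjusted p = 0.00744 and adjusted p = 1. Called genes made up 3.12% of the 32, beside 3.84% of all tested genes (2.5% higher and 1.34% lower). The median log2 change was 0.118 over the 32 genes and -0.00687 over all genes. In the replicate 1 pair their median log2 CPM difference was 0.265 and 24 of 32 were above control, against 0.0156 and 17 of 32 in the replicate 2 pair. These pair values use CPM without the TMM factors of the fit. The same values over all genes were not summarised, so a shift of all genes within a pair was not set apart.

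Both MB knockdown values exceeded both control values for 6 of the 32 genes (18.8%), beside 15.6% of all tested genes, and lay under both for 0, beside 11% of all. Besides Gdf15, these were Ccng1, Pmaip1, Sesn1, Tnfrsf10b and Btg2, none of which passed the test. Ccng1, a cyclin that recruits a phosphatase to Mdm2, was at 344 and 339 CPM in MB control, 456 and 357 CPM in MB knockdown, then 339 CPM in MT control and 434 CPM in MT knockdown. Tnfrsf10b, a death receptor for the ligand TRAIL, was at 39.9 and 37.3 CPM, 47.9 and 42.9 CPM, then 37.9 and 45.7 CPM. Btg2, an antiproliferative cofactor of mRNA decay, was at 22.7 and 27.3 CPM, 53.6 and 32.4 CPM, then 93.4 and 154 CPM. For Ccng1 and Btg2 the separation came mostly from the replicate 1 pair. There the knockdown lay 0.41 and 1.24 above control on the log2 scale, against 0.074 and 0.25 in the replicate 2 pair. The replicate 1 pair was also further apart for Pmaip1 (1.04 against 0.40), Sesn1 (0.82 against 0.29) and Gdf15 (1.45 against 0.77). Tnfrsf10b was nearly alike in both pairs (0.26 and 0.20).

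**Figure D3:**
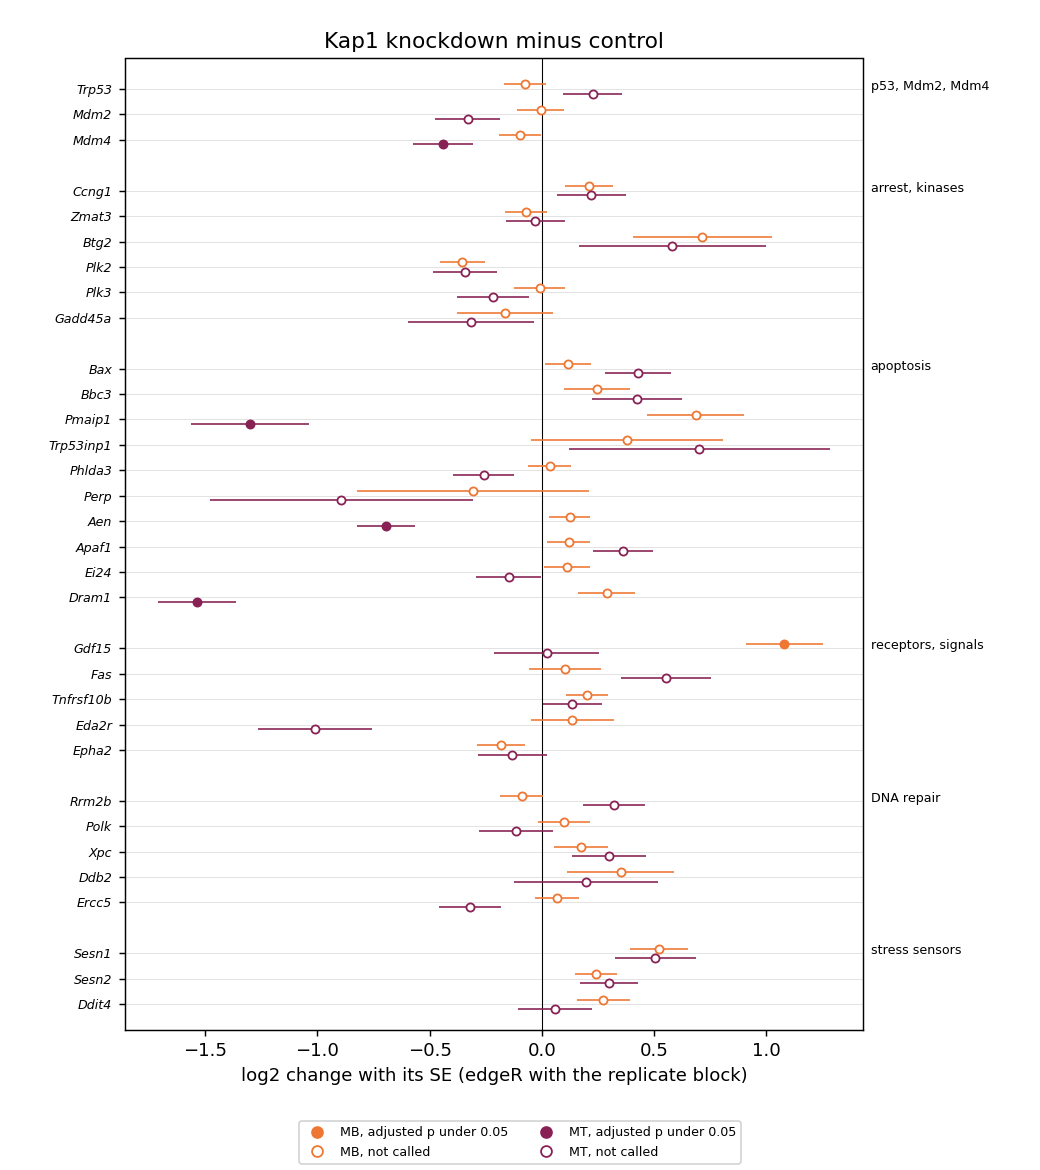
Log2 change with knockdown in MB (orange) and in MT (purple) for each gene, with the standard error of the fit with the replicate block as bars and filled points where the adjusted p is under 0.05. The 4 filled purple points are Dram1, Pmaip1, Aen and Mdm4, all under 0, and the filled orange point is Gdf15 at 1.08.

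With knockdown in MT, 4 of the 32 genes fell and 0 rose. That is 12.5% and 0%, beside 11.2% and 9.09% of all tested genes, or 20.3% called either way. The median log2 change was -0.0037, beside 0.018 over all genes. The split depends on scaling. With total library size, under which the median of all genes stood at 0.155, the 32 had a median of 0.133. Then 8 were called, with Bax, Apaf1, Rrm2b, Fas and Sesn2 higher and Dram1, Pmaip1 and Aen lower, so the last 3 kept their call and Mdm4 did not. In the same comparison all genes split 1498 higher and 1846 lower with TMM and 2330 and 1385 with total size.

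Of the 10 genes grouped as mitochondrial apoptosis and cell loss, 3 fell with knockdown in MT, 0 rose and 7 were not called. That is 30% and 0%, beside 11.2% and 9.09% of all tested genes. The grouping was chosen with earlier results of these data known, so these shares describe the group and do not test it. A log2 change above 0 was found for 4 (40%, beside 51.8% of all tested genes). With total library size the same 3 fell, and Bax and Apaf1 of these 10 were called higher. Dram1, a lysosomal protein of p53-driven autophagy, was at 16.1 and 6.81 CPM in MB control, 18.2 and 9.53 CPM in MB knockdown, 51 CPM in MT control and 19.3 CPM in MT knockdown. MT control held the highest value and MT knockdown lay just above the highest MB value. The fall in MT was 1.54 (SE 0.172, adjusted p = 0.000202, edgeR with the block). Pmaip1, also called Noxa, a BH3-only protein that neutralises Mcl1, was at 1.55 and 2.26 CPM in MB control, 3.19 and 3 CPM in MB knockdown, 17.3 CPM in MT control and 7.7 CPM in MT knockdown. It fell in MT by 1.30 (SE 0.263, adjusted p = 0.00685), or 0.076 in DESeq2 with the block, where the call was lost.

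Aen, a nuclease that degrades DNA in apoptosis and whose promoter stretch is shown above, was at 103 and 66.1 CPM in MB control, 115 and 73.2 CPM in MB knockdown, 114 CPM in MT control and 77.4 CPM in MT knockdown. The MT knockdown value lay inside the range of the MB libraries. Its fall in MT was 0.69 (SE 0.13, adjusted p = 0.00453, edgeR with the block). Eda2r, a receptor of ectodysplasin known from muscle wasting, went from 107 CPM in MT control to 58.4 CPM in MT knockdown (-1.01, SE 0.256, adjusted p = 0.0537) and was called in DESeq2 with the block but not in edgeR. Differentiated muscle markers were also lower in MT knockdown than in MT control (127 against 6173 CPM). Between MB replicates 1 and 2 their sum rose, from 15.7 to 118 CPM in control and from 14.3 to 73.9 CPM in knockdown. Dram1, Aen and Eda2r were lower in replicate 2 of both MB groups, and Pmaip1 was higher in control and lower in knockdown. The part of these markers in the result was not tested.

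The MT knockdown effect was lower than the MB one for 3 genes by the interaction term, which is 9.38% of the 32, beside 10.5% of all tested genes (3.82% higher and 6.63% lower). They were the same Dram1 (-1.83, SE 0.213, adjusted p = 0.000497, edgeR with the block), Pmaip1 (-1.99, SE 0.341, adjusted p = 0.00478) and Aen (-0.82, SE 0.158, adjusted p = 0.00898). In MB each lay above control in both pairs without passing the test. Without the block the difference for Dram1 ran from -2.52 without MB_shCtrl replicate 1 to -1.26 without MB_shKap1 replicate 1, and for Aen from -1.16 to -0.48 without the same libraries. Gdf15 had a difference of -1.06 that missed the threshold (adjusted p = 0.0533) and was called with the block and no filter on low counts.

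More of the 32 genes were called for differentiation than for knockdown, as among all genes. In control cells 12 rose and 3 fell (37.5% and 9.38%, beside 22.3% and 22.6% of all tested genes). In knockdown cells 7 rose and 4 fell (21.9% and 12.5%, beside 16.6% and 16.5%). Called in all were 46.9% and 34.4%, beside 44.9% and 33.1%. The median log2 change was 0.405 in control and 0.147 in knockdown cells, beside -0.0131 and 0.0165 over all genes. Both comparisons share the estimate of the replicate term, which places MT beside replicate 1 of MB.

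**Figure D4:**
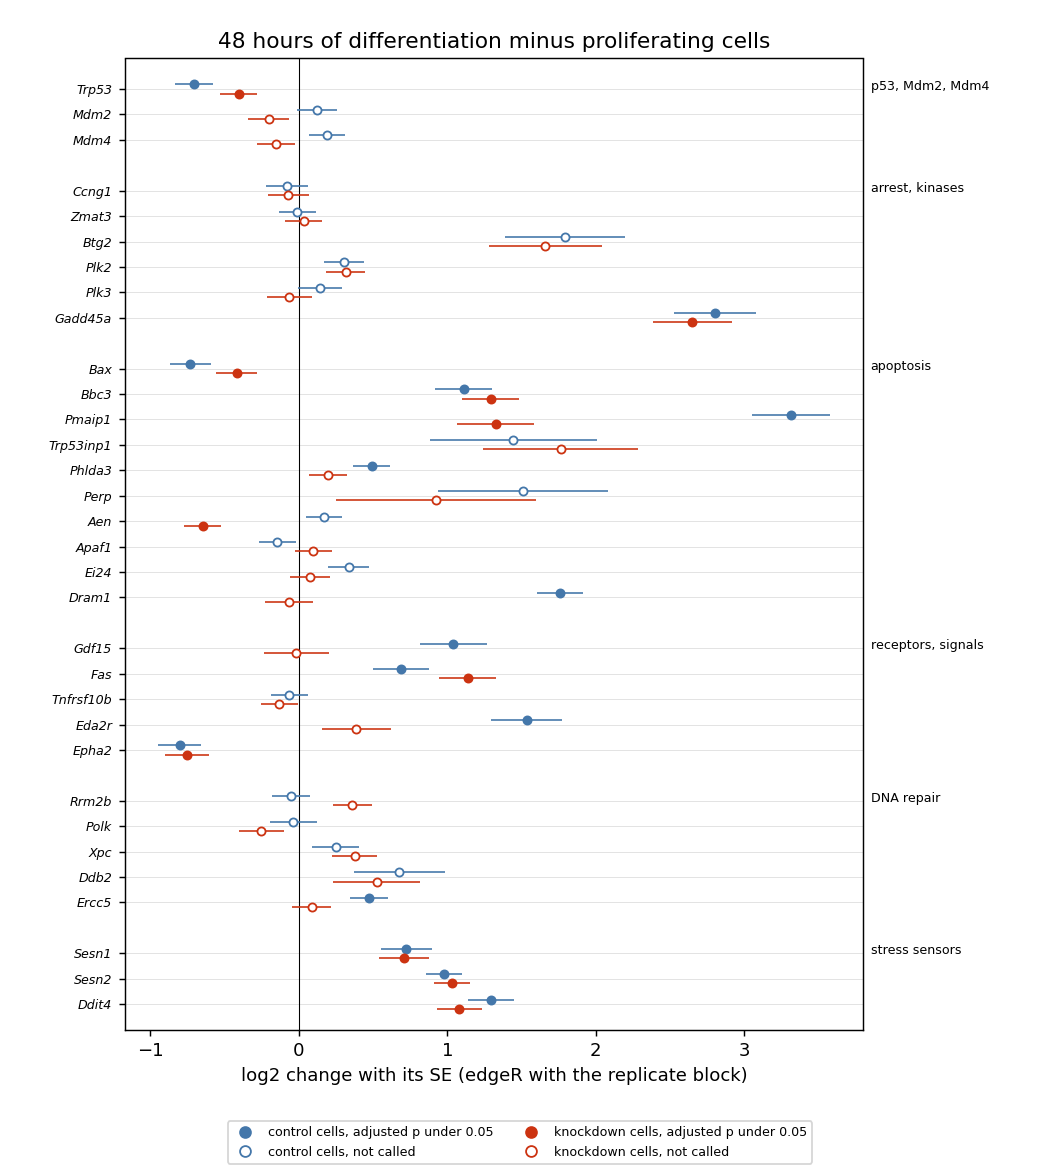
Log2 change from MB to MT in control cells (blue) and in knockdown cells (red) for each gene, with the standard error of the fit with the replicate block as bars and filled points where the adjusted p is under 0.05. Pmaip1 reaches 3.31 in control and 1.33 in knockdown cells, while Gadd45a stands at 2.80 and 2.65.

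In the group for mitochondrial apoptosis and cell loss, Pmaip1 rose by 3.31 in control cells (adjusted p = 5.92e-06, edgeR with the block). It rose by 1.33 in knockdown cells (adjusted p = 0.00347). Dram1 rose by 1.76 in control cells (adjusted p = 1.23e-05) and stood at -0.07 in knockdown cells, where it was not called. Bbc3, also called Puma, a BH3-only activator of apoptosis, was at 5.05 and 9.22 CPM in MB control, 6.09 and 11.2 CPM in MB knockdown, 10.7 CPM in MT control and 15.8 CPM in MT knockdown. It rose by 1.11 and 1.29 (adjusted p = 0.00101 and 0.00078), although replicate 2 of MB control lay close to MT control. Without MB_shCtrl replicate 1 the Bbc3 value fell to 0.22, and without MB_shKap1 replicate 1 to 0.38, in the fit without the block. Without MB_shCtrl replicate 1 the Dram1 value was 2.91 in that fit.

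Bax, which opens the outer mitochondrial membrane, moved the other way. It was at 164 and 124 CPM in MB control, 203 and 123 CPM in MB knockdown, 103 CPM in MT control and 152 CPM in MT knockdown. It fell by 0.73 in control cells (adjusted p = 0.00199, edgeR with the block) and by 0.42 in knockdown cells (adjusted p = 0.0401). The latter was lost with total library size (0.0941) and in DESeq2 with the block (0.0946), and without the block it turned to 0.19 without MB_shKap1 replicate 1. The control value was -0.27 without MB_shCtrl replicate 1. Aen fell by 0.65 in knockdown cells (adjusted p = 0.00309), or -0.033 without MB_shKap1 replicate 1 in the fit without the block.

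Phlda3, a competitor of Akt at the membrane, was at 128 and 116 CPM in MB control, 143 and 113 CPM in MB knockdown, 183 CPM in MT control and 168 CPM in MT knockdown. It rose in control cells by 0.49 (adjusted p = 0.00981, edgeR with the block), with both MT values above all MB values. Apaf1, the scaffold of the apoptosome, was at 56 and 66.1 CPM, 59.6 and 76.4 CPM, then 48.7 and 68.8 CPM, and was called in neither differentiation contrast. Trp53inp1, a cofactor of p53 in stress, spread from 26.6 to 160 CPM with both MT values on top. It was not called in edgeR with the block (log2 change 1.44 with SE 0.562 in control cells, 1.76 with SE 0.523 in knockdown cells), while DESeq2 without the block called both. Ei24, a membrane protein of autophagy, ran from 59.9 to 81.1 CPM. Perp, a desmosomal effector of p53 in epithelia, had 7 to 28 counts per library (0.15 to 0.562 CPM).

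All 3 metabolic stress sensors rose with differentiation in control and in knockdown cells, beside 22.3% and 16.6% of all tested genes. They too were grouped with earlier results of these data known, so the share is a description and not a test. Sesn2, which restrains mTORC1 when amino acids are short, was at 34.9 and 51.6 CPM in MB control, 42.8 and 61.2 CPM in MB knockdown, 67.9 CPM in MT control and 91.7 CPM in MT knockdown. It rose by 0.97 and 1.03 (adjusted p = 0.000127 and 0.000201, edgeR with the block), with both MT values above all MB values. Its relative Sesn1 was at 26.9 and 42 CPM, 47.7 and 51.3 CPM, then 48.3 and 75.4 CPM, and rose by 0.72 and 0.71 (adjusted p = 0.0101 and 0.0137). Ddit4, an inhibitor of mTORC1 induced by hypoxia and glucocorticoids, was at 43.8 and 103 CPM, 63.6 and 108 CPM, then 115 and 132 CPM, and rose by 1.30 and 1.08 (adjusted p = 0.00019 and 0.000956). The rises were smaller against replicate 2: without MB_shCtrl replicate 1, and without the block, the control values were 0.40, 0.20 and 0.17 for Sesn2, Sesn1 and Ddit4. Without MB_shKap1 replicate 1 the knockdown values were 0.47, 0.44 and 0.17.

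Of the arrest genes, Gadd45a, a small stress protein that binds PCNA and p38 pathway kinases, was called. It stood at 8.63 and 33.3 CPM in MB control, 10.8 and 23.2 CPM in MB knockdown, 70.1 CPM in MT control and 62 CPM in MT knockdown. Both MT values lay above all MB values, with rises of 2.80 and 2.65 (adjusted p = 0.0015 and 0.00278, edgeR with the block). Without the block these were 1.08 without MB_shCtrl replicate 1 and 1.30 without MB_shKap1 replicate 1. Gadd45a shares 19.1% of its exon length with the opposite-strand gene E230016M11Rik in a later annotation, and since the strand setting of the counting is not given, its value is uncertain to that extent. Btg2 lay above all MB values in both MT libraries but was not called (1.79, SE 0.404, adjusted p = 0.0588 in control cells, and 1.66, SE 0.379, adjusted p = 0.0748 in knockdown cells), while DESeq2 called both with and without the block, and RLE factors with the block gave a call in control cells. Plk2, a polo-like kinase of centriole duplication, was at 265 and 201 CPM, 229.9 and 148 CPM, then 335 and 290.5 CPM, also highest in MT and not called (adjusted p = 0.087 and 0.0902), except in knockdown cells with total library size and the block. Its relative Plk3 ran from 18 to 21 CPM, and the RNA-binding protein gene Zmat3 from 57.6 to 68.5 CPM, the smallest spreads beside Mdm4 with highest over lowest ratios of 1.17, 1.19 and 1.23.

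Death receptors and surface signals split. Eda2r rose in control cells by 1.53 (adjusted p = 0.00576, edgeR with the block), from 32.9 and 29 CPM to 107 CPM, and from 47.5 and 25.1 CPM to 58.4 CPM in knockdown cells it was not called. Gdf15 rose in control cells by 1.04 (adjusted p = 0.00531) and stood at -0.017 in knockdown cells. Fas, the receptor of Fas ligand, rose by 0.69 and 1.14 (adjusted p = 0.0162 and 0.00236), the former lost in DESeq2 with the block (0.0767). Epha2, an ephrin receptor, fell in both, by 0.80 and 0.75 (adjusted p = 0.00146 and 0.0039). Epha2 went from 138 and 139.5 CPM in MB control and 111 and 140.5 CPM in MB knockdown to 73.6 CPM and 73.8 CPM in MT control and knockdown, so that no MT value overlapped MB. Whether a rise differed between control and knockdown cells is given by the interaction term above, which called neither Eda2r (-1.15, adjusted p = 0.0988) nor Fas (0.45, adjusted p = 0.324) in edgeR, while DESeq2 with the block called Eda2r.

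Among the repair genes, Ercc5, the nuclease that cuts on the 3′ side of a lesion, was at 27.8 and 26 CPM in MB control, 31.3 and 26.5 CPM in MB knockdown, 38.9 CPM in MT control and 34.2 CPM in MT knockdown. It rose by 0.47 in control cells (adjusted p = 0.0123, edgeR with the block), and DESeq2 with the block did not call it (0.123). The damage sensors Xpc and Ddb2 ran from 16.2 to 29.6 CPM and from 2.74 to 6.35 CPM, each highest in MT knockdown, and were called nowhere. Polk, a bypass polymerase, ran from 31.3 to 45 CPM. Ddb2 shares 23.8% of its exon length with the opposite-strand gene Acp2 in the later annotation, which leaves its level uncertain.

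Many of these genes differed between replicates 1 and 2 of MB, in the same direction in control and knockdown. Replicate 2 lay under replicate 1 in both groups for 18 of the 32 genes and above it in both for 9, beside 40.8% and 36.5% of all tested genes. By the replicate term, 6 genes were higher in replicate 2 and 7 lower (18.8% and 21.9%, beside 14.9% and 13.7% of all tested genes). In the fit without the block these differences enter its spread.

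**Figure D5:**
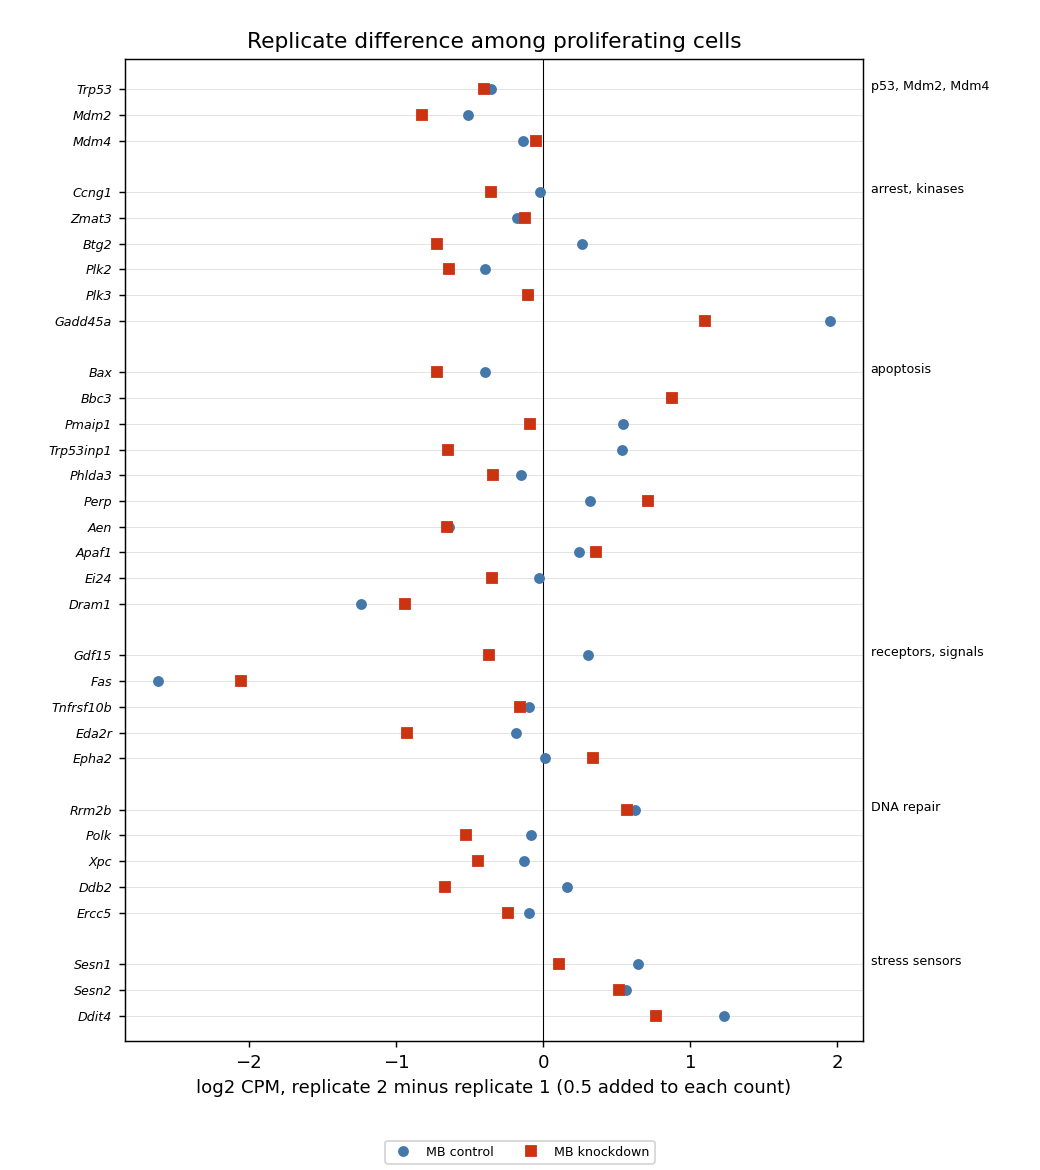
Log2 CPM of replicate 2 minus replicate 1 among proliferating cells, for control (blue circles) and knockdown (red squares), with 0.5 added to each count. Fas (-2.62 and -2.05) and Dram1 (-1.24 and -0.94) lie far to the left in both groups, and Gadd45a (1.95 and 1.10) and Ddit4 (1.23 and 0.76) to the right.

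Fas was at 17.5 and 2.85 CPM in MB control, 16.5 and 3.96 CPM in MB knockdown, 25.7 CPM in MT control and 41.5 CPM in MT knockdown. Its replicate term was -2.30 (SE 0.164, adjusted p = 1.58e-05, edgeR) and its changes with differentiation in the same fit were 0.69 and 1.14. Without the block the change in control cells was 0.58 without MB_shCtrl replicate 2 and 3.18 without MB_shCtrl replicate 1. In knockdown cells that change was 3.27 without MB_shKap1 replicate 1. Also lower in replicate 2 were Dram1 (-1.06), Mdm2 (-0.64, adjusted p = 0.00144), Aen (-0.62), Bax (-0.53), Plk2 (-0.49) and Trp53 (-0.35). Higher in replicate 2 were Gadd45a (1.55), Ddit4 (1.02, adjusted p = 0.000351), Bbc3 (0.90), Rrm2b (0.62), Sesn2 (0.57) and Apaf1 (0.33). Rrm2b, the p53-induced subunit that supplies deoxynucleotides outside S phase, was at 23.8 and 36.7 CPM, 23.3 and 34.5 CPM, then 22.8 and 31.3 CPM, and was called by the replicate term and in no group contrast with TMM. With total library size and the block it was called for knockdown in MT and for differentiation of knockdown cells.

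Stress genes driven by the factors Atf4 and Ddit3 moved with the replicates too. Of 14 such genes, 10 were higher in replicate 2 and 0 lower (71.4% and 0%, beside 14.9% and 13.7% of all tested genes). Trib3, a pseudokinase target of both factors, was at 10.2 and 76.8 CPM in MB control and 9.86 and 98.8 CPM in MB knockdown. Values were similarly split for Cth, an enzyme of cysteine synthesis, at 7.06 and 38.4 CPM, then 8.42 and 49.2 CPM. Differentiated muscle markers summed to 15.7 and 118 CPM in control replicates 1 and 2 and to 14.3 and 73.9 CPM in knockdown. Smooth muscle markers summed to 2986 and 1295 CPM in control and to 5815 and 1937 CPM in knockdown. The part of these lists in the replicate differences of the p53 genes was not tested. Of the same 14, knockdown in MB changed 0 in edgeR with the block, where 3 had unadjusted p under 0.05, and knockdown in MT raised 8 and lowered 0 (57.1% and 0%, beside 9.09% and 11.2% of all tested genes). Differentiation raised 7 and lowered 4 of them in control cells (50% and 28.6%, beside 22.3% and 22.6%), and raised 10 and lowered 1 in knockdown cells (71.4% and 7.14%, beside 16.6% and 16.5%). Ddit3 went from 103 to 192 CPM in MT (0.77, adjusted p = 0.00247, edgeR with the block), Asns, which makes asparagine, from 83.6 to 169 CPM (0.88, adjusted p = 0.00271), and Cth from 7.5 to 22.2 CPM (1.43, adjusted p = 0.000215).

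A further 22 p53 targets were listed, of which 20 were tested. With knockdown in MB 0 passed in edgeR with the block, where 3 had unadjusted p under 0.05. In MT, 3 rose and 1 fell (15% and 5%, beside 9.09% and 11.2% of all tested genes). The risers were Rap2b, a small GTPase (0.74, adjusted p = 0.00949, edgeR with the block), Gpx1, a peroxidase (0.57, adjusted p = 0.0139), and Ckap2, a spindle protein of dividing cells (0.43, adjusted p = 0.0408). The faller was Cdkn1a, the cyclin-dependent kinase inhibitor p21 and the best known p53 target, which was at 163.5 and 158.5 CPM in MB control, 271 and 138 CPM in MB knockdown, 1670 CPM in MT control and 370.1 CPM in MT knockdown (-2.31, SE 0.387, adjusted p = 0.0388). Cdkn1a rose with differentiation of control cells by 3.13 (adjusted p = 0.00745) and was not called in knockdown cells (0.58, adjusted p = 0.287). Differentiation of control cells raised 4 of the 20 and lowered 9 (20% and 45%, beside 22.3% and 22.6% of all tested genes). That of knockdown cells raised 4 and lowered 6 (20% and 30%, beside 16.6% and 16.5%). Of the 20, the replicate term called 0 higher and 9 lower in replicate 2 (0% and 45%, beside 14.9% and 13.7%). Gtse1, a G2 protein that shuttles p53 out of the nucleus, fell by 1.29 and 0.85 (adjusted p = 3.25e-05 and 0.00101), and the long noncoding RNA Trp53cor1 rose by 2.03 and 1.71 (0.00142 and 0.00538). The 4 markers of cycling cells summed to 1522 to 2035 CPM in MB, 724 CPM in MT control and 949 CPM in MT knockdown, and their part in these changes was not tested.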

How the data were processed

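The 32 genes, their grouping and the other lists were chosen with earlier results of these data known. Their shares beside all tested genes are therefore descriptions and not tests. The deposited values are read counts per Ensembl gene, which the authors made with TopHat2 2.0.11 on mm9 and HTSeq, per the submitters' processing notes. The annotation release, counting mode and strand setting were not stated. Summary lines without a gene did not enter the library sizes (no feature: 5.18% to 8.07%, ambiguous: 2.81% to 2.93%). These shares are of the counts on genes, no feature and ambiguous together, not of all reads. Symbols came from a later mouse annotation by Ensembl identifier. CPM use the total count on genes.

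Tests of the counts used edgeR 4.0.16 under R 4.3.3 (robust quasi-likelihood, TMM, filterByExpr by group), all 6 libraries in 1 fit, Benjamini-Hochberg adjusted, threshold 0.05. The first fit, without the block, had 2 residual degrees of freedom and a common coefficient of variation of 32.9%. The fit with the replicate block had 1 and 9.74%. The pairing comes from a mark in the file names, whose meaning is not given. Across 16472 genes, which are not independent, the difference between replicates in control correlated with that in knockdown (r = 0.717). Standard errors are the log2 change over the root of F. Floors cover counting error only. The scripts were tested on simulated data. Genes printed in every library were Trp53, Mdm2, Mdm4 and those called in any contrast or not overlapping in MB, and a few genes of each other list with the smallest p. Alternatives were RLE or total-size scaling, no filter, DESeq2 1.42.0 and leaving out each MB library. Exon overlaps came from GENCODE on GRCm38, used for names and shares.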

Additional observations from a re-analysis of the deposited data

Results flagged for a closer look

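The knockdown effect differed between MT and MB for 3 genes by the interaction term of edgeR with the replicate block. The difference, MT effect minus MB effect on the log2 scale, was -1.99 for Pmaip1 (adjusted p = 0.00478), -1.83 for Dram1 (adjusted p = 0.000497) and -0.82 for Aen (adjusted p = 0.00898). Each MT effect compares 1 library with 1 library, and without the block none of the 3 passed. With the block, all 3 were also called with RLE factors, with total library size, without a filter and in DESeq2.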

How the results depend on the processing

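Contrasts are listed in the order knockdown in MB, knockdown in MT, differentiation of control cells, differentiation of knockdown cells and interaction. Without a replicate block edgeR called 0 genes in each. With the replicate block it called 632, 3344, 7398, 5446 and 1722 genes, and 1, 4, 15, 11 and 3 of the 32. DESeq2 without the block called 52, 360, 2379, 835 and 158 genes, and of the 32 it called 7 and 3 in the differentiation contrasts. DESeq2 with the block called 328, 1540, 4331, 2919 and 958 genes, and 1, 3, 14, 10 and 4 of the 32. For differentiation of control cells without the block, RLE factors gave 78 genes and no filter gave 582 genes with 1 of the 32. Leaving out single MB libraries gave 0 to 141. No filter gave 2 genes for differentiation of knockdown cells. With the replicate block and no filter, knockdown in MB called 1046 genes and 3 of the 32 (Gdf15, Sesn1 and Plk2). With the block and total library size, knockdown in MT called 8 of the 32. Against the fit without the block, medians of the 32 moved by less than 0.177 in the alternatives compared. That figure is the SD of the 2 MB pair medians. The single pairs could hardly exceed it, since the MB median lies near their midpoint, and it gives no spread for the other contrasts. Medians under further alternatives with the block were not compared. The median for knockdown in MT turned from -0.0037 to 0.133 with total size, and that of the interaction, without the block, from -0.105 to 0.0028. The median for knockdown in MB ran from -0.012 without MB_shKap1 replicate 1 to 0.263 without MB_shKap1 replicate 2. It stood at 0.265 and 0.0156 in the single pairs, in CPM without TMM factors, an alternative chosen after seeing the data. Of 34 gene and contrast combinations called with the block, 1 reversed under the alternatives. Reversal was judged against the sign in edgeR without the block, which called 0 genes. The reversed one was Bax in differentiation of knockdown cells, at -0.42 with the block. Without the block it was -0.19 with all libraries, and -0.49 to 0.19 when single libraries were left out. The cause was not tested. Leaving out a library with the block was not run, since no residual degree of freedom remains. MT groups hold 1 library each, so no MT library could be left out. Depth limits Perp most, with 7 to 28 counts per library.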
